A study of Saccharomyces cerevisiae with 6 samples.

Results

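The transcriptome of wild type budding yeast in exponential growth was read from 3 of the 6 libraries of the series, and every one of the 7126 rows of the deposited table was taken in. The yeast was Saccharomyces cerevisiae of the W303 background, a common laboratory strain, with the genotype given as WT. It was grown in YPD+CSM, a glucose-based rich medium with an added mix of amino acids and nucleobases, and harvested at an optical density of 0.6. The study set this wild type against mms21RINGD, an allele of the gene of the SUMO ligase Mms21, and the mutant libraries enter no value below. Libraries were made from total RNA after depletion of ribosomal RNA. The labels do not say whether the 3 replicates were separate cultures, so an SD over 3 libraries may measure technical spread alone.

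Yeast on ample glucose ferments it to ethanol through glycolysis, pyruvate decarboxylase and alcohol dehydrogenase, while many genes of respiration and of the use of other sugars are repressed. Fast growth also calls for new ribosomes, so messenger RNAs of ribosomal proteins are abundant, and small nucleolar RNAs (snoRNAs) guide the cutting and chemical modification of ribosomal RNA. Many yeast genes have a duplicate, or paralog, often kept from an ancient duplication of the whole genome, and the members of a pair can differ in when they are used.

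Levels are given as RPKM, reads per kilobase of gene span and per M reads, and the sign ± stands for the SD over 3 libraries. Totals solved from the values were 24.6, 20.9 and 21.7 M reads, and 3 reads on a span of 1 kb amount to 0.122 to 0.144 RPKM. The reads of all rows came to 99.9% of these totals in each library, although some rows lie inside others. The totals may therefore be sums over the rows and not library sizes, and shares of reads below are shares of these totals. Replicate 1 lay farther from replicates 2 and 3 than these lay from each other, so values are given library by library where they turn on it. A mean of at least 1 RPKM was reached by 6619 rows (92.9%), at least 10 RPKM by 4937 (69.3%), at least 100 RPKM by 1108 (15.5%) and at least 1000 RPKM by 209. The median row had 20.96, 18.4 and 17.9 RPKM in replicates 1, 2 and 3. Among the 5897 nuclear protein-coding rows the median was 20.7 RPKM, and the 10th and 90th percentiles were 3.70 and 168 RPKM.

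The highest row of all was SCR1, an RNA that forms the core of the signal recognition particle and so takes nascent secretory proteins to the endoplasmic reticulum. SCR1 had 99066, 102129 and 105039 RPKM in the 3 libraries. Next came snR190, a box C/D snoRNA, with 39865, 43725 and 46364 RPKM. TDH3, the main glyceraldehyde 3-phosphate dehydrogenase of glycolysis, was the highest messenger RNA with 24445, 23181 and 22648 RPKM. The ranges of these 3 rows did not overlap. Below them stood snR17a, 1 of the 2 genes of the U3 snoRNA that is needed to cut the precursor of 18S ribosomal RNA, at 20103 ± 573 RPKM, and snR37, a box H/ACA snoRNA, at 19061 ± 1139 RPKM. The ranges of snR17a and snR37 overlapped, though snR17a was the higher in each library.

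**Figure D1:**
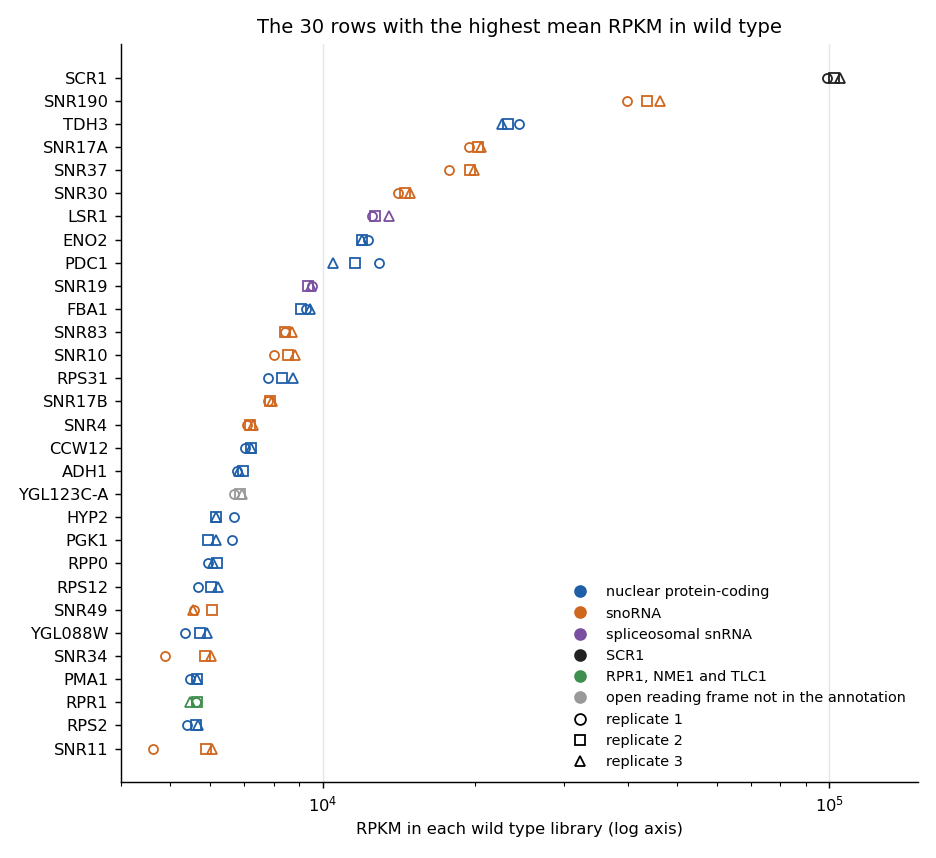
RPKM of the 30 highest rows in each of the 3 wild type libraries, on a log axis, with symbols for the replicates and colours for the RNA class. SCR1 stood alone, from 99066 RPKM up, while neighbouring rows farther down overlapped in part, such as snR17a with snR37 and ENO2 with PDC1.

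The gene of snR190 is shown because it was the highest row after SCR1, and its capitals mark the first TGATGA and the last CTGA, the sequences of boxes C and D that define its class. It lies at chrX:139761-139950 on the minus strand of the R64 assembly (sacCer3) and was read from the RefSeq genome as DNA.
snR190: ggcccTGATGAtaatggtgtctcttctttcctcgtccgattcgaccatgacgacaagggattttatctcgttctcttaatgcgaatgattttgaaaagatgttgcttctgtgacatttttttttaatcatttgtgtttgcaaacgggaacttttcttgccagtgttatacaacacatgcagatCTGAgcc

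Of the 30 highest rows, 14 were protein-coding, 11 were snoRNAs and 2 were spliceosomal RNAs. The other 3 were SCR1, RPR1 and YGL123C-A. RPR1, the RNA of ribonuclease P, which trims transfer RNA precursors, had 5579 ± 102 RPKM, and NME1, the RNA of the related ribonuclease MRP, had 4658 ± 245 RPKM. TLC1, the template RNA of telomerase, was far lower, with 274, 266 and 272 RPKM.

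By RNA class, nuclear protein-coding rows took 76.6%, 75.3% and 74.2% of the reads. The 76 snoRNA rows took 6.46%, 6.96% and 7.14% of the reads, and since snoRNAs are short, 18.4 ± 0.999% of the summed RPKM. The 55 mitochondrial rows took 4.77%, 5.41% and 6.23% of the reads, SCR1 alone 5.33 ± 0.156% and the 6 spliceosomal RNA rows 2.22 ± 0.0651%. Some mitochondrial rows lie inside others, such as AI1 to AI5_ALPHA inside COX1, BI2 to BI4 inside COB and SCEI inside the 21S ribosomal RNA. The mitochondrial share can therefore count the same reads repeatedly. Replicate 1 was lowest of the 3 in the snoRNA, mitochondrial and SCR1 shares and highest in the protein-coding share. The rows of nuclear ribosomal RNA, which the libraries were depleted of, held 0.127%, 0.115% and 0.00947% of the reads, so replicate 3 stood more than 10-fold below the others. Several of these rows held nearly the same number of reads, as described below, and some lie inside others. RDN25-1 (8, 68 and 15 reads) and RDN18-2 (19, 51 and 47 reads) did not show that gap. These shares therefore do not measure how well each library was depleted. Transfer RNA genes, 275 rows, held 0.0106 ± 0.000628% of the reads, which can be a lower bound since their lengths were solved from the values.

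Among snoRNAs the longer rows had the higher medians, with exceptions. The 20 snoRNA rows of at least 200 bases had a median of 5225 RPKM, the 30 rows of 100 to 199 bases 1007 RPKM and the 26 rows under 100 bases 129 RPKM. Yet snR190, at 190 bases, was the highest of all with 43318 RPKM, and outside the snoRNAs TLC1, the RNA of telomerase (1301 bases), had 270 RPKM, against 5579 RPKM for RPR1 (369 bases) and 4658 RPKM for NME1 (340 bases). Among the spliceosomal RNAs, which work together in the splicing of introns, U2 (LSR1, 1175 bases) had 12899 ± 532 RPKM and U1 (snR19, 568 bases) 9454 ± 90.03 RPKM. U4 (snR14, 160 bases) had 262, 407 and 419 RPKM and U6 (snR6, 112 bases) 35.5, 54.7 and 51.0 RPKM, although U4 and U6 pair with each other in the same particle. The ranges of these 4 RNAs did not overlap. Short RNAs are lost more easily when RNA is made into libraries, and how far that set these levels was not tested. The 2 rows of U5, snR7-L and snR7-S, differed by at most 12 reads among 16987 to 19553, and the short form is contained in the long one, so the 2 forms cannot be told apart here.

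A few genes carried much of the messenger RNA. The 10 highest protein-coding rows held 13.2 ± 0.156% of the protein-coding RPKM and 112 rows held 50% of it. By contrast the 2948 lowest rows held 3.86 ± 0.345%. After TDH3 came ENO2, an enolase, with 12269, 11987 and 11948 RPKM, and PDC1, a pyruvate decarboxylase, with 12907, 11560 and 10483 RPKM. These ranges overlapped, so the order of ENO2 and PDC1 was not fixed across libraries. FBA1, the aldolase of glycolysis, followed at 9264 ± 178 RPKM and RPS31, whose product is a fusion of ubiquitin with a ribosomal protein, at 8291 ± 469 RPKM. The remaining rows among the 10 highest were CCW12, a cell wall mannoprotein (7148 ± 111 RPKM), ADH1, the fermentative alcohol dehydrogenase (6855 ± 91.9 RPKM), HYP2, the translation factor eIF5A (6330 ± 302 RPKM), PGK1, phosphoglycerate kinase (6245 ± 354 RPKM), and RPP0, a protein of the ribosomal stalk (6066 ± 114 RPKM). Glycolysis and fermentation thus supplied 6 of the 10, and the translation machinery 3. YGL088W, ranked 25 of all rows at 5659 ± 280 RPKM, overlaps the snoRNA gene snR10 (8461 RPKM), and reads of the 2 cannot be separated in this table.

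Ribosomal proteins formed the largest functional group examined. The 137 genes of cytosolic ribosomal proteins held 31.9%, 33.6% and 34.3% of the protein-coding RPKM, and their median was 1244 RPKM, against 20.7 RPKM for all protein-coding rows. A level of 100 RPKM was reached by 135 of 137 of them. Many of these genes have introns, and RPKM divides by a span that includes the intron: with exon length in its place the group held 40.9% of the protein-coding RPKM. RPS12 and RPS2 of the small subunit had 5974 ± 282 and 5566 ± 157 RPKM, and RPL10 of the large subunit had 5108 ± 138 RPKM. At the low end stood RPL7B with 78.5 RPKM and RPL15B with 25.7 RPKM, both second copies of a gene whose other copy was higher.

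Glycolysis and fermentation, 25 genes, held 12.6%, 12.2% and 12.1% of the protein-coding RPKM. Besides the genes above, CDC19, the main pyruvate kinase, had 5319 ± 78.0 RPKM, GPM1, phosphoglycerate mutase, 4766 ± 304 RPKM and TPI1, triose phosphate isomerase, 3791 ± 76.1 RPKM. The enzymes at the entry of the pathway were lower: HXK2, a hexokinase, had 1077, 836 and 797 RPKM, and PFK1 and PFK2, the subunits of phosphofructokinase, had 755, 730 and 711 and 723, 720 and 701 RPKM. All 3 were below the lowest library of TPI1.

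Translation elongation factors, 12 genes, held 2.26 ± 0.00298% of the protein-coding RPKM, led by HYP2 and by YEF3, the fungal elongation factor 3, at 4311 ± 231 RPKM. Cell wall and surface genes, 29 in number, held 2.39 ± 0.0114%, most of it from CCW12 and from CWP2, another wall mannoprotein, which had 2966, 2964 and 2960 RPKM. Ribosome biogenesis factors, which cut, modify and fold ribosomal RNA as subunits form, were many and moderate in level: 142 genes held 1.75%, 2.39% and 2.40%, with a median of 70.7 RPKM. NOP1, the methyltransferase of box C/D snoRNA particles, had 485, 638 and 616 RPKM. In both the share of this group and NOP1, replicate 1 lay below the other 2 libraries.

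Anabolism was well represented. The 31 genes of sterol and fatty acid synthesis had a median of 300 RPKM, led by OLE1, the only fatty acid desaturase of yeast, with 1143, 2052 and 2037 RPKM. The 75 genes of amino acid synthesis had a median of 117 RPKM, with ILV5 of the branched-chain pathway highest at 1411 RPKM, although amino acids were added to the medium. PMA1, the proton pump of the plasma membrane, had 5586 ± 97.7 RPKM and PHO84, the high-affinity phosphate transporter, 1529, 2361 and 2362 RPKM. The 41 genes of oxidative phosphorylation had a median of 205 RPKM and the 25 of the citric acid cycle 71.4 RPKM. Respiration was thus below glycolysis (median 732 RPKM) but above the median gene.

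**Figure D2:**
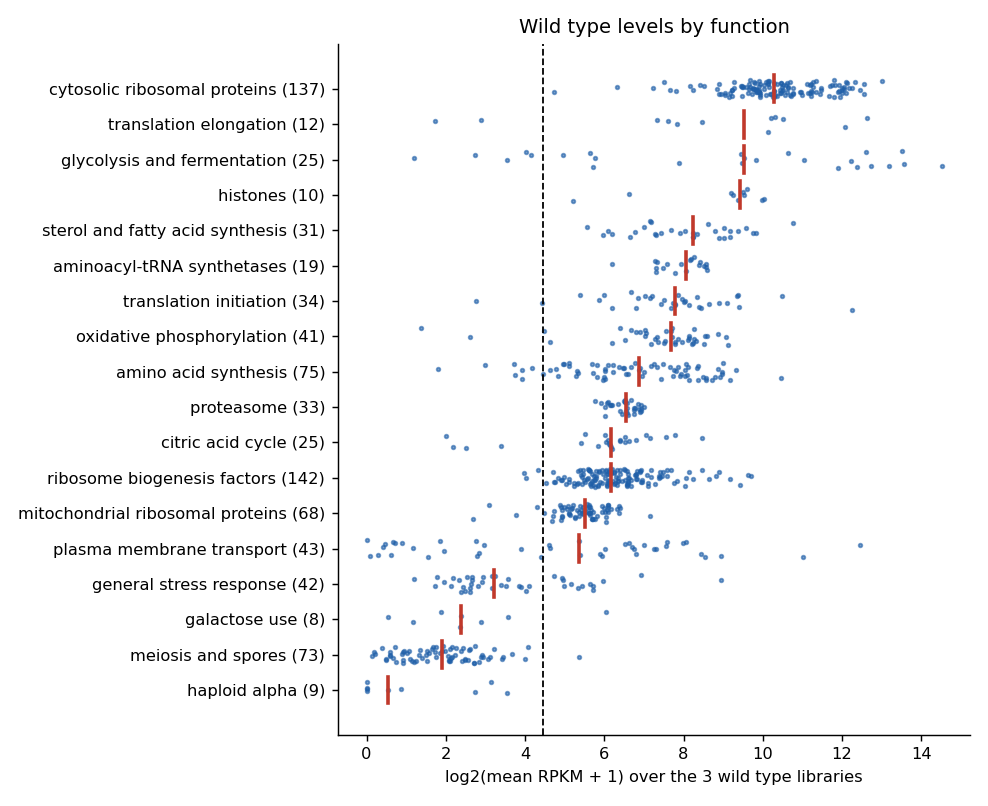
Mean RPKM over the 3 wild type libraries as log2(mean RPKM + 1) for each gene of 18 lists (points, number of genes in brackets), with the median of the list (red bar) and of all nuclear protein-coding rows (dashed line, 20.7 RPKM). Ribosomal proteins lie furthest right with a median of 1244 RPKM, and stress, galactose, meiosis and alpha mating genes lie left of the dashed line.

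Genes of other states of life were low but seldom without reads. The 73 genes of meiosis and spore formation had a median of 2.72 RPKM, 17 were under 1 RPKM and 1 was off. IME1, the inducer of meiosis, had 1.16, 1.10 and 1.15 RPKM, and the highest of the list was UBX6 at 39.8 RPKM. Genes of galactose use had a median of 4.20 RPKM over 8 genes: GAL7, an enzyme of the pathway, had 0.406, 0.652 and 0.293 RPKM, while GAL80, the repressor that keeps the pathway shut, had 64.7 RPKM. The 42 genes of the general stress response had a median of 8.25 RPKM, with HSP12, a small membrane-protecting protein, at 34.9, 22.1 and 19.0 RPKM and CTT1, the cytosolic catalase, at 6.32, 3.63 and 4.44 RPKM. In the other direction HOR7 reached 493 RPKM, so membership of the stress list did not by itself mean a low level.

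Most marker genes of mating type a were expressed, and those of mating type alpha were lower. STE2, the receptor for alpha factor found on a cells, had 422, 510 and 508 RPKM, and the a-factor genes MFA1 and MFA2 had 344, 501 and 506 and 1380, 1492 and 1472 RPKM. STE6, the exporter of a-factor, had 96.6 ± 1.28 RPKM. Of the 7 genes listed as markers of a cells, 5 were at 10 RPKM or more, and their summed level was 2375, 2731 and 2708 RPKM. The 6 markers of alpha cells summed to 29.4, 24.7 and 22.4 RPKM: STE3, the receptor for a-factor, had 0.747, 0.847 and 0.912 RPKM, and 3 of the 6 were at 1 RPKM or more. The highest was AFB1, a blocker of a-factor, with 12.3, 10.2 and 9.48 RPKM, and SAG1, the alpha agglutinin, had 8.98, 7.48 and 7.10 RPKM. MATALPHA1, the activator of alpha genes, had no read, but its coding sequence has an exact copy in HMLALPHA1, also with no read, so that absence of transcript and loss of reads that match both places cannot be told apart. HMRA1, the copy of the a1 gene at the silent mating locus and the only a1 row in the table, had 31.9, 36.0 and 39.99 RPKM. The reference genome holds the alpha genes at the active mating locus. Reads of an a1 gene at the active locus and of HMRA1 therefore cannot be told apart. All 7 markers of haploid cells of either type, such as STE4 and GPA1 of the pheromone pathway, lay between 17.2 and 65.9 RPKM.

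One marker of a cells went the other way. BAR1, the secreted protease with which a cells break down alpha factor, had 0 reads in all 3 libraries. Its neighbours were looked at after this value was seen. On chromosome IX, SNL1 (chrIX:321454-321933) and BAR1 itself (chrIX:322342-324105) had 0, 0 and 0 reads, and the small open reading frame YIL014C-A (chrIX:325212-325526) had 0, 1 and 0. The flanking genes VID28 (chrIX:318200-320965) and MNT3 (chrIX:326103-327995) had 2292, 1618 and 1776 and 1347, 1065 and 1159 reads. So 3 adjacent rows were off between 2 neighbours at 30.4 and 28.0 RPKM. The labels name no change at this locus, and its cause was not tested.

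Within gene families, 1 member often carried nearly all of the level. TDH3 made up 91.6 ± 0.923% of the summed RPKM of the 3 glyceraldehyde 3-phosphate dehydrogenases, TDH2 8.24% and TDH1 0.193%. TDH2 had 1907, 2225 and 2180 RPKM, and TDH1 37.3, 57.6 and 52.4 RPKM. ENO2 made up 94.5% of enolase, with ENO1 at 610, 722 and 754 RPKM. In all 3 libraries TDH3 was over 10-fold above TDH2 and ENO2 over 15-fold above ENO1.

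The copies are similar enough in sequence that it matters whether reads can be placed. Over 999 coding bases TDH3 differed from TDH2 at 42 and from TDH1 at 111, and the longest stretch identical between TDH3 and TDH2 ran over 173 bases. ENO2 differed from ENO1 at 68 of 1314 bases. Bases 301 to 420 of each coding sequence are printed to show how the copies differ, with capitals at the bases that vary within the group, read from the RefSeq R64 genome. TDH3 is at chrVII:883391-883510 (minus strand), TDH2 at chrX:454262-454381 (minus), TDH1 at chrX:338571-338690 (plus), ENO2 at chrVIII:451627-451746 (plus) and ENO1 at chrVII:1001227-1001346 (plus).
TDH3: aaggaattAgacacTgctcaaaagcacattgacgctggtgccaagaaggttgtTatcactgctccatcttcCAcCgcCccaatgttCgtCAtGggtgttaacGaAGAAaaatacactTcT
TDH2: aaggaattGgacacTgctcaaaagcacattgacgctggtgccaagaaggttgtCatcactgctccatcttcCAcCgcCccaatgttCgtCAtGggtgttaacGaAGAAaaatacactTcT
TDH1: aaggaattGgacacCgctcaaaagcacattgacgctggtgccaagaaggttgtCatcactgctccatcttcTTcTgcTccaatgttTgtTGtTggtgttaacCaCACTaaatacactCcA
ENO2: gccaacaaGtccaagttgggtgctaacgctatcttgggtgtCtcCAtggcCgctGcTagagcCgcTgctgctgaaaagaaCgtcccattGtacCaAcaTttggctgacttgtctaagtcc
ENO1: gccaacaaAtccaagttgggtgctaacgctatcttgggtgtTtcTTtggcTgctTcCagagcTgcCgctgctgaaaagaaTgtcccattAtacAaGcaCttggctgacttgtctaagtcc

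In this stretch TDH3 and TDH2 differed at 2 bases, TDH3 and TDH1 at 18, and ENO2 and ENO1 at 14. Where copies are nearly the same, the split of reads depends on how reads with several matches were treated, which is not given in the sources used here. TEF1 and TEF2, the 2 genes of elongation factor 1 alpha, differed at 2 of 1377 bases with an identical stretch of 761 bases, and had 1262 ± 25.6 and 1181 ± 42.4 RPKM. EFT2 and EFT1, both encoding elongation factor 2, differed at 4 of 2529 bases and had 352 ± 14.8 and 227 ± 6.50 RPKM. CUP1-1 and CUP1-2, metallothionein genes of identical coding sequence, held 1 to 3 reads in each library. Levels of such members are therefore uncertain.

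The other families of glycolysis and fermentation were as one-sided as these. PDC1 made up 99.9% of pyruvate decarboxylase, with PDC5 at 16.7, 14.97 and 14.01 RPKM and PDC6 at 1.30 ± 0.113 RPKM. CDC19 made up 99.8% of pyruvate kinase, against PYK2 at 16.3, 7.81 and 8.20 RPKM. ADH1 made up 96.4% of alcohol dehydrogenase, and ADH2, which oxidises ethanol once glucose is gone, had 6.28, 4.98 and 5.63 RPKM. HXK2 made up 92.6% of the hexokinases, with GLK1, a glucokinase, at 97.7, 29.3 and 27.1 RPKM and HXK1 at 72.7, 9.85 and 7.26 RPKM. For GLK1 and HXK1 replicate 1 stood apart from the other 2. PFK1 and PFK2, which form 1 enzyme as different subunits, were nearly equal at 50.6% and 49.4%.

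Hexose transporters were shared out over several members. HXT3, a low-affinity transporter, had 452, 511 and 521 RPKM (40.6% of the family), HXT2, of high affinity, 401, 307 and 334 RPKM (28.4%), HXT1, of low affinity, 257, 264 and 277 RPKM (21.8%) and HXT4 137, 84.0 and 72.4 RPKM (7.96%). The 4 did not overlap between neighbours in that order. Among the other members HXT7 was highest, at 15.03, 2.79 and 2.53 RPKM, and HXT16 had no read; each has a nearly identical neighbour in the family, HXT6 and HXT15, so their levels are uncertain.

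Outside sugar metabolism, the same contrast of one-sided and even families appeared. YEF3 made up 99.9% of elongation factor 3 (HEF3 at 2.28 ± 0.392 RPKM), HYP2 99.9% of eIF5A (ANB1, its form of cells short of oxygen, at 6.35 ± 1.27 RPKM) and PMA1 99.9% of the plasma membrane proton pump (PMA2 at 5.77 ± 0.490 RPKM). CYC1 made up 98.7% of cytochrome c, COX5A 94.0% of cytochrome oxidase subunit 5 and RNR1 98.8% of the large subunit of ribonucleotide reductase. Among the chaperones, SSA2 made up 86.9% of the SSA Hsp70 family and HSC82, the Hsp90 form of unstressed cells, 94.1% of Hsp90. Pairs of genes for the core histones were closer: the higher copy held 59.1% for H2A (HTA1), 52.9% for H2B (HTB2), 58.2% for H3 (HHT2) and 56.0% for H4 (HHF2).

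Across the genome, 469 pairs of nuclear protein-coding genes were each other's best protein match, and 433 had a pair mean of at least 1 RPKM. A member was at least 2-fold above its partner in every library, on the log2(RPKM + 1) scale, in 231 pairs (53.3%), at least 4-fold in 138 (31.9%) and at least 10-fold in 77 (17.8%). The same member was higher in all 3 libraries in 406 of the 433, and the median ratio was 2.46-fold. Only 80 pairs stayed within 1.5-fold in every library. The pairs with the largest mean log2 ratio were YEF3/HEF3 (10.36), ADH1/ADH2 (10.02), HYP2/ANB1 (9.77), PMA1/PMA2 (9.69), PDC1/PDC5 (9.49) and CDC19/PYK2 (8.89). They were followed by HXT2/HXT10 (8.03), the wall glucanosyltransferases GAS1/GAS2 (7.87), the external NADH dehydrogenases NDE1/NDE2 (7.75) and the RNA helicases DED1/DBP1 (7.57). Since the scale adds 1 RPKM, these ratios understate the contrast where the lower member is near 1 RPKM.

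The most even pairs were the calcineurin subunits CMP2 and CNA1 (17.1 and 16.9 RPKM), the Rab GTPases YPT1 and SEC4 (185 and 183 RPKM), the lipid transfer proteins OSH6 and OSH7 (26.5 and 26.0 RPKM), the nucleoporins NUP157 and NUP170 (41.2 and 40.8 RPKM) and the wall proteins DFG5 and DCW1 (57.4 and 56.4 RPKM). In each of these 5 pairs the mean log2 ratio was smaller than its SD over libraries. In CMP2/CNA1 the higher member differed between libraries: CMP2 had 21.3, 16.7 and 13.2 RPKM and CNA1 17.5, 17.5 and 15.7 RPKM.

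Ribosomal protein genes mostly come as an A and a B copy with nearly the same product. Of 59 such pairs, 22 (37.3%) differed at least 2-fold in every library, 8 at least 4-fold and 2 at least 10-fold, and the median ratio was 1.66-fold. These ratios use spans that include introns. With exon length in their place 24 pairs differed at least 2-fold. RPS22A over RPS22B, of which only RPS22B has an intron, then went from 6.29-fold to 2.82-fold. Reads of snoRNAs that lie inside these genes, such as snR44 in RPS22B, can also enter their rows. RPL15A had 3830, 3998 and 4045 RPKM and RPL15B 27.7, 24.2 and 25.2 RPKM, at least 133-fold apart in each library. RPS9B and RPS9A had 1647 and 180 RPKM, and RPL22A and RPL22B 1217 and 149 RPKM. The A copy was higher in 35 pairs and the B copy in 24. The copies of RPS6, RPL37 and RPL4 were the most even, RPS6 and RPL4 being pairs of 99.2% and 98.9% coding identity, whose split is uncertain.

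**Figure D3:**
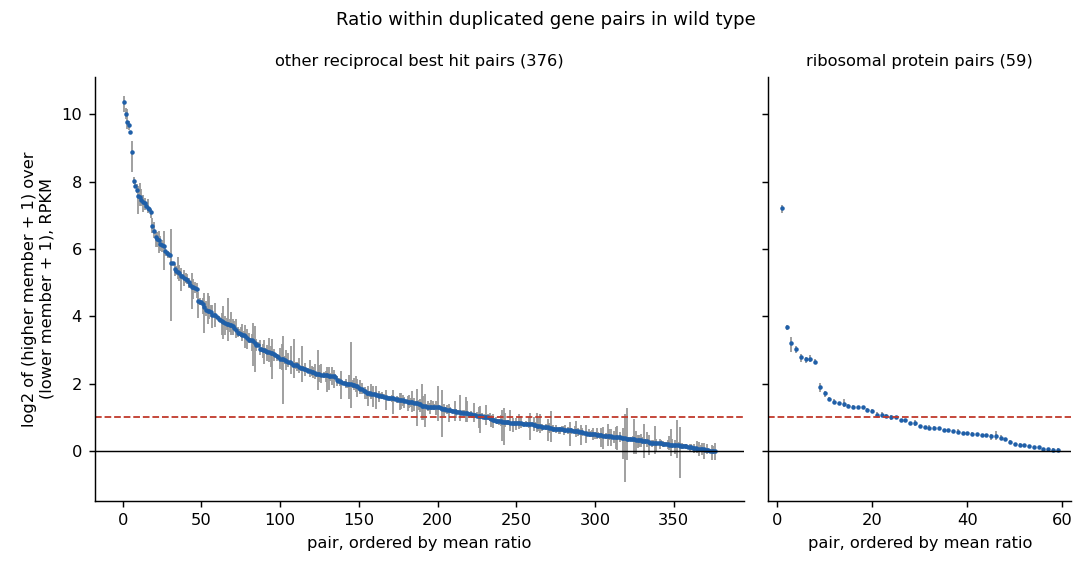
Ratio within each pair in log2 of RPKM + 1, higher over lower member, for 376 reciprocal best pairs that are not ribosomal (left) and the 59 ribosomal protein pairs (right). Points are means of the 3 libraries, grey lines run from the lowest to the highest library and the dashed line marks 2-fold: YEF3/HEF3 leads on the left at 10.36, and RPL15A/RPL15B on the right at 7.21.

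Codon use went with level. The preferred codon of each of 18 amino acids was taken as the one used most by the ribosomal protein genes themselves, which are therefore no test of it. In the other genes the median share of preferred codons was 37.1% for 234 genes under 1 RPKM, 36.5% for 1295 genes of 1 to 10 RPKM, 38.1% for 3408 genes of 10 to 100 RPKM, 48.8% for 699 genes of 100 to 1000 RPKM and 71.7% for 50 genes of 1000 RPKM or more. The share thus stayed between 36.5% and 38.1% up to 100 RPKM and was higher in both bins above. Coding length also differed between bins, with medians of 666 bases under 1 RPKM, 1362 bases at 1 to 10 RPKM, 1026 bases at 100 to 1000 RPKM and 981 bases from 1000 RPKM.

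Paralogs differed in the same way. In 129 pairs without ribosomal proteins that were apart by at least 4-fold in every library, the higher member had more preferred codons in 117, with medians of 50.4% and 40.6% for the higher and the lower member. In 166 such pairs under 2-fold in at least 1 library it did so in 83, with medians of 40.1% and 39.8%. HEF3 had 42.3% and PYK2 40.9% preferred codons, against 77.1% in YEF3 and 77.5% in CDC19. TDH1 was an exception: it had 76.1% preferred codons at 49.1 RPKM, close to the 79.8% of TDH3, and PDC5 had 74.2% at 15.2 RPKM.

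**Figure D4:**
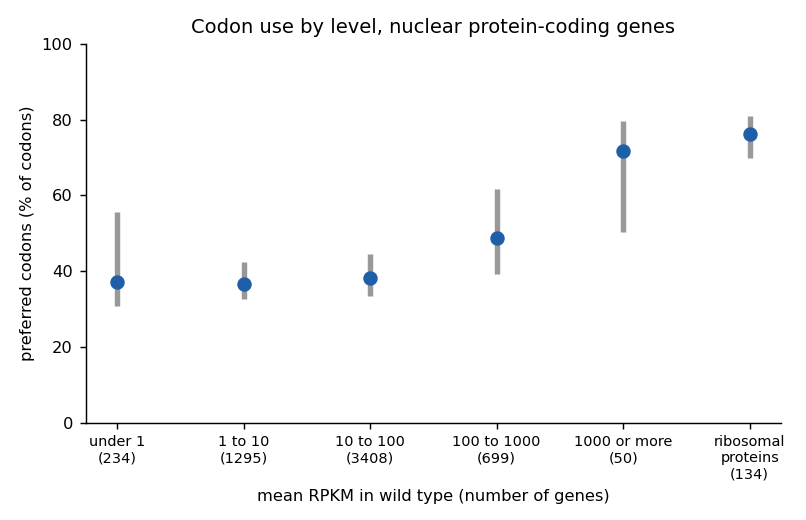
Share of preferred codons in nuclear protein-coding genes by mean RPKM in wild type, with ribosomal proteins, which defined the preferred codons, on their own at the right. Points are medians, grey bars span the 10th to the 90th percentile and brackets give the number of genes: the median lies between 36.5% and 38.1% up to 100 RPKM and at 71.7% from 1000 RPKM.

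Upstream sequence was searched for 9 short motifs on both strands, in the window from 400 to 101 bases before the start codon of 5896 genes. A window each of 3 genes is printed to show the motifs in groups that differ in level or between libraries, read from the RefSeq R64 genome with the motif in capitals. RPS2 carries ACCCATACA, a form of the site of Rap1, the general activator of ribosomal protein genes (chrVII:277217-277516, plus strand); it also holds CCCCT once, not in capitals. NSR1, a nucleolar ribosome biogenesis factor, carries GATGAG, here on the other strand as CTCATC, and AAAATTTT, known as the PAC and RRPE elements (chrVII:807757-808056, minus strand); it also holds ACCCATACA once on the other strand, not in capitals. GLK1 carries CCCCT 3 times on either strand, the stress element read by Msn2 and Msn4 (chrIII:50438-50737, plus strand); it also holds AAAATTTT once, not in capitals.
RPS2: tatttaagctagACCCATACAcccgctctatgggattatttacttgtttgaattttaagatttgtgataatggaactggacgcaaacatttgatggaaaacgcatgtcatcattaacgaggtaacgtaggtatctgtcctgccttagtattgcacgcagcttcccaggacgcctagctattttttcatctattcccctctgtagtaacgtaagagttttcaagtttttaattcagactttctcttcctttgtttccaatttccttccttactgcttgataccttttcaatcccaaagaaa
NSR1: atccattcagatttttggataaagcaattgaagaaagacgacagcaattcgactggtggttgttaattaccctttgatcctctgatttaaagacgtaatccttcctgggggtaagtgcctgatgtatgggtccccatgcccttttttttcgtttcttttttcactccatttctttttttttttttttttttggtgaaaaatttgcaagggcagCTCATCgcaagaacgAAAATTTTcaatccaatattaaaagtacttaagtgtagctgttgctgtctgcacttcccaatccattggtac
GLK1: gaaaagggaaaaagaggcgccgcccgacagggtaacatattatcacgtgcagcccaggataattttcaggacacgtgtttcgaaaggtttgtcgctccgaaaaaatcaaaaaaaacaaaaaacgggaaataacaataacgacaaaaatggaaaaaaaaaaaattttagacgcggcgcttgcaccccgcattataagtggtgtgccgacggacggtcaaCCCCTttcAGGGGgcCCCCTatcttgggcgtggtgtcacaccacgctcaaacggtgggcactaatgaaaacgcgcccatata

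Ribosome biogenesis factors stood out by both of their elements: GATGAG was in 63.4% of their 142 windows, against 17.9% of all windows, and AAAATTTT in 66.9%, against 9.2%. CCCCT was in 85.7% of the 42 stress response windows, against 23.9% of all. ACCCATACA was in 12.4% of the 137 ribosomal protein windows, against 0.8% of all, and its core ACCCA in 57.7%, against 29.8%. TATAAA was in 9 of the 11 windows of glycolysis and fermentation genes at 1000 RPKM or more, 81.8%, against 43.0% of all. The other motifs were CTTCC of Gcr1, CGGGTAA of Reb1 and ATTGTTC of Rox1, found in 46.3%, 9.1% and 7.0% of all windows. Outside the ribosomal protein genes, 531 rows with AAAATTTT had a median of 52.2 RPKM and 5228 without it 18.7 RPKM. This was the largest difference among the 9 motifs, and 95 windows of ribosome biogenesis factors, which hold AAAATTTT, were not set aside. CGGGTAA followed with 31.3 against 19.2 RPKM and GATGAG with 27.6 against 19.0 RPKM. For the remaining motifs the medians were 18.4 to 20.2 RPKM with and 19.9 to 20.6 RPKM without the motif. A match is a run of letters and not a bound site.

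Few genes were off. A row counted as off where it had at most 3 reads in each library, and 302 of 7126 rows (4.24%) did so. Among nuclear protein-coding rows these were 110 of 5897 (1.87%), of which 62 had no read at all. All 76 snoRNA rows had reads in every library, while 99 of 275 transfer RNA rows (36.0%) were off. Lengths of transfer RNA rows and of open reading frames outside the annotation were solved from the values, so their reads can be lower bounds. Loss of reads with several matches can also lower the reads of transfer RNA genes that have like copies, and this was not tested. The counts of 302 and 99 off rows can therefore be too high.

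Off genes lay mostly near chromosome ends and in families of near-identical copies. Within 30 kb of an end, 74 of 385 protein-coding rows were off (19.2%), against 36 of 5512 rows farther inside (0.65%), and the medians were 4.74 and 22.1 RPKM. Of 192 rows whose coding sequence had a copy of at least 95% identity, 70 were off (36.5%), against 0.7% of the others. Of 36 rows with an exact copy of their whole coding sequence, 33 were off. In those the absence of transcripts and the loss of reads with several matches cannot be told apart. Whether each off locus is present in the W303 strain used, as it is in the reference genome, was not tested. The 10 longest off rows were all Y′ element helicases or their relatives at chromosome ends: YRF1-3, YRF1-6, YRF1-7, YIL177C, YJL225C, YRF1-1, YRF1-5, YRF1-8, YLL066C and YLL067C. Off were also 15 of 24 seripauperins, small wall proteins of anaerobic growth, 4 of 4 copies of the asparaginase gene ASP3, 3 of 3 enolase-related ERR genes and 3 of 12 COS genes.

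After both groups were set aside, 20 off rows remained, away from ends and without a near copy. The longest were BAR1, the uncharacterized YGL138C (0, 2 and 1 reads) and SMA1, a gene of spore formation (3, 1 and 3 reads). The others ran from 102 to 564 bases, and most had no described function. YGL138C was named here after its values were seen.

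Some rows held reads that may not be their own, and the table shows where. Among 679 open reading frames outside the annotation, which took 4.13 ± 0.0332% of the reads, the highest was YGL123C-A with 6677, 6881 and 6945 RPKM. By its systematic name it neighbours RPS2 (YGL123W) on the opposite strand, and RPS2 had 5566 RPKM. Likewise YEL034C-A (5444 RPKM) neighbours HYP2 (6330 RPKM), YCR013C (5168 RPKM) neighbours PGK1 (6245 RPKM) and YAL037C-B (5153 RPKM) neighbours CDC19 (5319 RPKM), all 3 chosen after their values were seen. Of the 40 highest such frames, 39 had an annotated row of at least 100 RPKM within 1 systematic number, against 33.2% of all the frames with any such neighbour, and the strand letters were opposite in 34 of the 40, against 68.6% of all the frames with any such neighbour. Without knowledge of the strand setting, reads of a gene and of a frame across from it cannot be told apart. Among annotated rows that lie inside another row, the outer row had at least as many reads as the inner in 13 of 13 cases on opposite strands, where 12 inner rows had reads, and in 83 of 84 on the same strand, where 77 had reads. The outer row is the longer, so this outcome is favoured under either strand setting and does not tell the settings apart.

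In the mitochondrial genome, unrelated rows shared a number of reads. Yeast mitochondria transcribe their small genome in long precursors that are then cut, and COX1 and COB, subunits of the respiratory complexes, had 442 ± 57.4 and 229 ± 30.3 RPKM over spans that include their introns. The 21S ribosomal RNA had 3407, 4022 and 4759 RPKM and OLI1, a subunit of the ATP synthase, 3793, 3915 and 4173 RPKM. Yet 20 short rows, 71 to 147 bases long and spread between the transfer RNA genes tW(UCA)Q and tM(CAU)Q1, had almost the same number of reads: 805 to 987 in replicate 1, 562 to 606 in replicate 2 and 701 to 953 in replicate 3. Another 4 short rows outside that stretch had 1 to 7, 0 to 16 and 2 to 12 reads. Why these rows share a number was not tested. The lowest of these numbers equals 99.8%, 99.5% and 98.7% of the reads of ATP8, another ATP synthase subunit, and 72.9%, 83.6% and 65.2% of those of the ribosomal protein VAR1. It equals 28.4%, 20.3% and 19.3% of those of ATP6, a further ATP synthase subunit, and at most 3.7% of those of COX1, COB, OLI1 and 21S ribosomal RNA.

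The nuclear ribosomal DNA showed a like pattern. The 5 rows from RDN18-1 to RDN58-2 held 4245 to 4310 reads in replicate 1, 3137 to 3243 in replicate 2 and 48 to 118 in replicate 3, although they differ in length from 121 to 3396 bases. RDN58-1, outside that stretch, held 4892, 3953 and 759 reads, while RDN25-1 and RDN18-2, also outside it, held 8 to 19, 51 to 68 and 15 to 47 reads. Of the 10 rows with the largest SD of log2(RPKM + 1) at a mean of at least 10 RPKM, 5 were ribosomal RNA rows and 2 were YLR154W-F and YLR154C-G, frames that by their names belong to the same region. The other 3 were HXK1, ZRT1, a zinc transporter with 40.03, 235 and 294 RPKM, and YFR052C-A, which by its name neighbours HXK1.

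The libraries were not equally far apart. Over 6619 rows with a mean of at least 1 RPKM, replicates 2 and 3 differed by a median of 0.0764 on the log2 scale, while replicate 1 differed from replicate 2 by 0.205 and from replicate 3 by 0.232. The SD over libraries had a median of 0.193 at 1 to 10 RPKM, 0.139 at 10 to 100, 0.117 at 100 to 1000 and 0.0574 from 1000 RPKM, so high rows were the more precise. Replicate 1 was higher than the mean of the other 2 by a median of 0.15 over all these rows and was the higher in 72.4% of them, and the lists below are to be read against that shift.

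The difference of replicate 1 ran along functions. The stress response was higher in replicate 1 than in the mean of replicates 2 and 3 by a median of 0.68, in 38 of 42 genes. The citric acid cycle stood 0.53 higher (24 of 25 genes), redox and antioxidant genes 0.48 (26 of 26), Hsp70, Hsp90 and cochaperones 0.48 (28 of 33), the proteasome 0.43 (33 of 33), oxidative phosphorylation 0.42 (41 of 41) and mitochondrial ribosomal proteins 0.41 (68 of 68). Each of these medians exceeded the shift of 0.15. Ribosome biogenesis factors went the other way, with a median of -0.39 and only 2 of 142 higher in replicate 1. Cytosolic ribosomal proteins also lay below the shift, with a median of -0.06 and 20 of 137 higher in replicate 1.

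Single genes could differ by more than the median of their list. HSP82, the inducible Hsp90, had 134, 35.4 and 37.2 RPKM in replicates 1, 2 and 3, and ACO1, aconitase of the citric acid cycle, 520, 272 and 274 RPKM. HSP82 was thus 1.86 higher in replicate 1 on the log2 scale, against a median of 0.48 for its list. NSR1, whose upstream window is printed above, had 297, 518 and 534 RPKM. PHO5, the acid phosphatase of phosphate starvation, had 78.2, 354 and 363 RPKM. Its list, of phosphate, nitrogen and metal starvation, had a median of 0.08, with 25 of 39 genes higher in replicate 1. That median lay below the shift of 0.15 over all rows. The list joins genes of several kinds of starvation, and those of phosphate were not summarised on their own. PHO84 was also lower in replicate 1, with 1529, 2361 and 2362 RPKM. In each of these genes replicates 2 and 3 lay close together and replicate 1 apart. The cause was not tested.

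**Figure D5:**
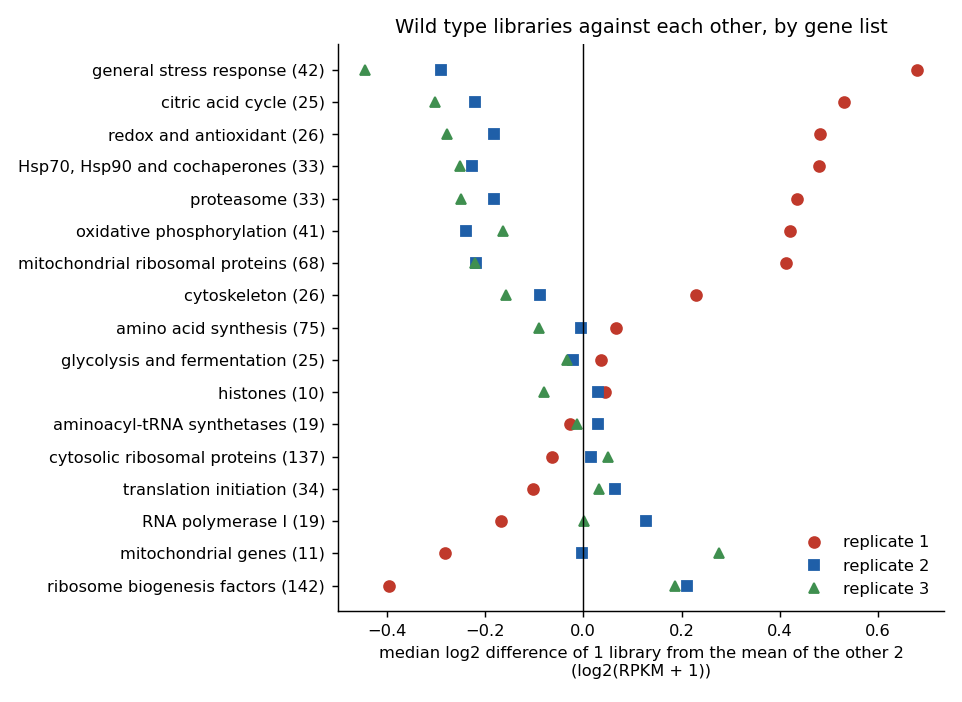
Median over the genes of each list of the difference, in log2(RPKM + 1), between 1 wild type library and the mean of the other 2, with the number of genes in brackets. Replicate 1 (red) lies right of 0 for the stress response (0.68) and left of 0 for ribosome biogenesis factors (-0.39), with replicates 2 and 3 on the other side.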

How the data were processed

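RNA was measured in 3 wild type libraries. The authors deposited RPKM values for 7126 rows, reads scaled to gene length and library size; no other unit was used. Per the submitters' processing notes the authors used edgeR 3.8.6, TopHat2 2.0.8 and CASAVA 1.8.2 and the build sacCer3. The read counter, the strand setting and the treatment of reads with several matches were not given in the sources used here. Names, spans and sequences came from RefSeq R64, the same assembly; 6162 rows matched, and 964 did not, of which 276 were transfer RNA genes and 679 open reading frames.

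Reads were read back as RPKM times span times depth, and 99.8% of values were whole within 0.02 of a read. Totals solved in this way were 24.6, 20.9 and 21.7 M reads, and they may be sums over the rows and not library sizes. Floors cover counting error only. Rows without a matching span had their length solved from the values of the 3 libraries, so their reads can be lower bounds. The read-back and the pair rule were tested on simulated data. Columns were assigned by title, and 3 columns of mutant libraries were not used.

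There was 1 group and no contrast, so no test was made. Shares are of reads for classes and of RPKM for functions. Pairs were reciprocal best protein hits (BLAST+ 2.17.0, at least 40% identity over at least 70% of both proteins), ribosomal A and B genes, and listed families, compared as log2(RPKM + 1). Computation used Python 3.11.15, pandas 2.3.3 and numpy 2.4.6. Genes named are the 30 highest rows, the 20 highest protein-coding rows, members of lists and families, the 10 most and 5 least unequal pairs, the 10 longest off protein-coding rows and the 10 most variable rows; others are said to be chosen after their values were seen. Members and lists were chosen with earlier results of these data known. Alternatives covered scaling, filters, pseudocounts, lengths, folds, rules for off and each library left out.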

Additional observations from a re-analysis of the deposited data

How the results depend on the processing

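No paired analysis was possible because a single group is described and no result comes from a test. Of 142 alternative values, 110 stayed within the SD over libraries or, for counts and the spread, within 1.5 times the value reported, and 32 did not. The 110 include the shares with 1 library left out, which could not fall outside the SD.

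Summed RPKM in place of reads put the class shares at 59.2% for protein-coding rows, 18.4% for snoRNAs, 2.24% for mitochondrial rows and 8.22% for SCR1. Summed reads in place of RPKM put the function shares at 21.2% for ribosomal proteins, 14.6% for glycolysis and fermentation and 3.24% for ribosome biogenesis factors, and exon length put the first at 40.9% and the second at 10.8%. Unequal reciprocal best pairs numbered 138 at 4-fold and 124 with both members at 10 RPKM or more. Unequal ribosomal protein pairs numbered 35 at 1.5-fold, 8 at 4-fold and 2 of 3 among pairs under 90% protein identity, since few pairs remain there. Off protein-coding rows numbered 62 with no read at all; off rows of any class numbered 131 with no read, 183 with a mean under 0.1 RPKM and 139 among rows that match the annotation.

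The median SD of log2(RPKM + 1) was 0.147, and leaving out each library in turn gave 0.0540 to 0.164, the lowest without replicate 1. With any 1 library left out the counts of rows, pairs and off rows stayed within 1.5 times. The shares stayed within 1 SD, but a mean of 3 values cannot move farther than that when 1 is left out. That outcome was fixed in advance and tells nothing about the shares. Depth limits rows near 3 reads.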
